A study of Homo sapiens with 21 samples.

Results

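EPCAM, the matriptase axis and a set of epithelial trafficking genes were followed across cancer cell lines before and after they became resistant to a drug. The 9 genes were those whose Ensembl identifiers carry the symbols EPCAM, ST14, PRSS8, SPINT1, SPINT2, RAB25, AP1M2, MAL2 and CDS1, out of 53515 genes counted. Each gene was present in the count files under 1 identifier.

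RNA sequencing covered 17 human cell lines in 21 libraries, of which 7 lines were parental and 10 were resistant descendants grown from them under rising drug doses. HepG2, a liver cancer line, was the parent of HepG2S1 and HepG2S3, both resistant to the kinase inhibitor sorafenib. The methods give the HepG2 cell lines another medium than the rest. PancVB, the name given to the pancreatic line Panc03.27, was the parent of PancB1Q and PancB1V, which resist the antimetabolite 5-fluorouracil. The lung lines HCC4006P1, HCC4006P2 and HCC827P were the parents of the erlotinib-resistant HCC4006ER and the gefitinib-resistant HCC4006GR and HCC827GR, both drugs being EGFR inhibitors. The ovarian line UWB1.289 gave rise to U10 and U100, resistant to the PARP inhibitor olaparib, and the ovarian line IGROV-1 to IGROV-1/CDDP, resistant to cisplatin. The paper lists HCC4006P1 and HCC4006P2 under the same cell line identifier, as parents of different resistant lines, and their identity was not tested here. The labels give no genotype. All lines were cultured cells, and each resistant line is a single derivation. In such bulk samples fewer cells expressing a gene and less RNA per cell cannot be told apart. Replicates existed for 4 lines (HepG2, HepG2S3, HCC4006P1, HCC4006ER), with 2 libraries per line, and the other 13 lines gave 1 library. Nothing says that the 2 libraries of a line came from separate cultures, and p-values then measure only the spread between these libraries.

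Background on the genes is as follows. EPCAM is an adhesion molecule of the lateral membrane of epithelial cells and is widely used to recognise carcinoma cells. ST14 encodes matriptase, a membrane-bound serine protease that cleaves EPCAM, PRSS8 encodes prostasin, a GPI-anchored protease that works together with matriptase, and SPINT1 and SPINT2 encode the Kunitz-type inhibitors HAI-1 and HAI-2 that hold matriptase in check. RAB25 is an epithelial small GTPase of the RAB11 family that acts in apical recycling, AP1M2 encodes the medium subunit of the epithelial clathrin adaptor AP-1B that sorts cargo to the basolateral membrane, MAL2 is a membrane protein needed for transcytosis, and CDS1 makes CDP-diacylglycerol, a precursor of phosphoinositides.

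The libraries held between 9851195 and 36639473 counts on genes, and 3 counts, the smallest number taken as detected, were worth 0.0819 CPM (counts per 1e+06 counts on genes) at the highest total and 0.305 CPM at the lowest. Replicate 1 of HCC4006P1 held no counts over a stretch of the genome that includes MAL2, so the MAL2 level of HCC4006P1 is that of replicate 2 alone, and the CPM of the other 8 genes in replicate 1 are raised by 22.1% for the same reason. Labelled tissues were checked against their markers. The liver genes ALB, APOA1, AFP and TTR together reached 16437 CPM in HepG2 but held 0 counts in HepG2S1 and 17.2 CPM in HepG2S3, while CD44 was at most 0.0861 CPM in HepG2 against 129 CPM in HepG2S1 and 163 and 157 CPM in HepG2S3. That HepG2S1 and HepG2S3 descend from HepG2 is given by the paper and was not tested here. The paper found small copy number differences between resistant and parental lines except in the HepG2 pairs. Counts over the pairs are also given without HepG2S1 and HepG2S3. Of the lung genes NKX2-1, NAPSA and SFTPB, none reached 1 CPM in HCC4006P1 (summed 0.423 CPM) or HCC4006ER (0.535 CPM), whereas they summed to 266 CPM in HCC4006P2 and 91.7 CPM in HCC827P. The pancreas list PDX1, KRT19 and MUC1 summed to 681 CPM in PancVB with PDX1 below 1 CPM. The ovary list PAX8, WT1 and MUC16 summed to 461 CPM in UWB1.289 and 665 CPM in IGROV-1, with WT1 below 1 CPM in both. In IGROV-1 only 1 of the 3 ovary genes reached 1 CPM. These lists did not single out the labelled tissue. The lung line HCC827P summed to 642 CPM on the ovary list. On the pancreas list HCC4006P1 (2042 CPM), HCC4006P2 (1277 CPM) and HCC827P (743 CPM) were above PancVB. The keratins KRT8 and KRT18 with CDH1 and CLDN4 summed to between 129 and 5248 CPM in all 17 lines. CDH1 was below 1 CPM in HepG2S1, HepG2S3, PancB1V and IGROV-1/CDDP and at 2.12 CPM in PancVB. The leukocyte genes PTPRC and CD3E stayed below 1 CPM in every library, while the third gene of that list, CD68, was responsible for its sum of up to 318 CPM, in HCC827GR. The endothelial genes VWF and CDH5 summed to between 0.0326 CPM in HepG2S3 and 82.8 CPM in U10.

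Levels of EPCAM, in chr2:47572297-47614740 of GRCh37 on the plus strand, spread over more than 3 orders of magnitude. The 7 parental lines ranged from 5.97 CPM in IGROV-1 to 598 CPM in UWB1.289 with a median of 344 CPM, and the 10 resistant lines from 0.316 CPM in IGROV-1/CDDP to 581 CPM in U100 with a median of 37.4 CPM. In descending order the lines were UWB1.289, U100, U10, HCC827P, HCC4006P1, HCC4006P2, HCC4006GR, HepG2, PancVB, PancB1Q, PancB1V, HCC827GR, HCC4006ER, HepG2S1, IGROV-1, HepG2S3 and IGROV-1/CDDP. The counting intervals overlapped between UWB1.289 and U100, between U10 and HCC827P, between HCC827P and HCC4006P1, between HCC827GR and HCC4006ER, and between HepG2S1 and IGROV-1, so that these neighbours in the order cannot be told apart. HCC827P and HCC4006P1 overlapped only through replicate 1 of HCC4006P1, whose CPM are raised. All intervals cover counting error only, and the replicates show that libraries vary by more than that. Over the 35 combinations of a gene and a line with 2 usable libraries, the replicates differed by a median of 0.22 in log2(CPM + 1), 16 of the 35 gaps exceeded their 95% Wilson intervals, and the largest gap was 1.24, for PRSS8 in HepG2. Without HCC4006P1, whose replicate 1 has raised CPM, the median was 0.15 and 8 of 27 gaps exceeded their intervals.

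**Figure D1:**
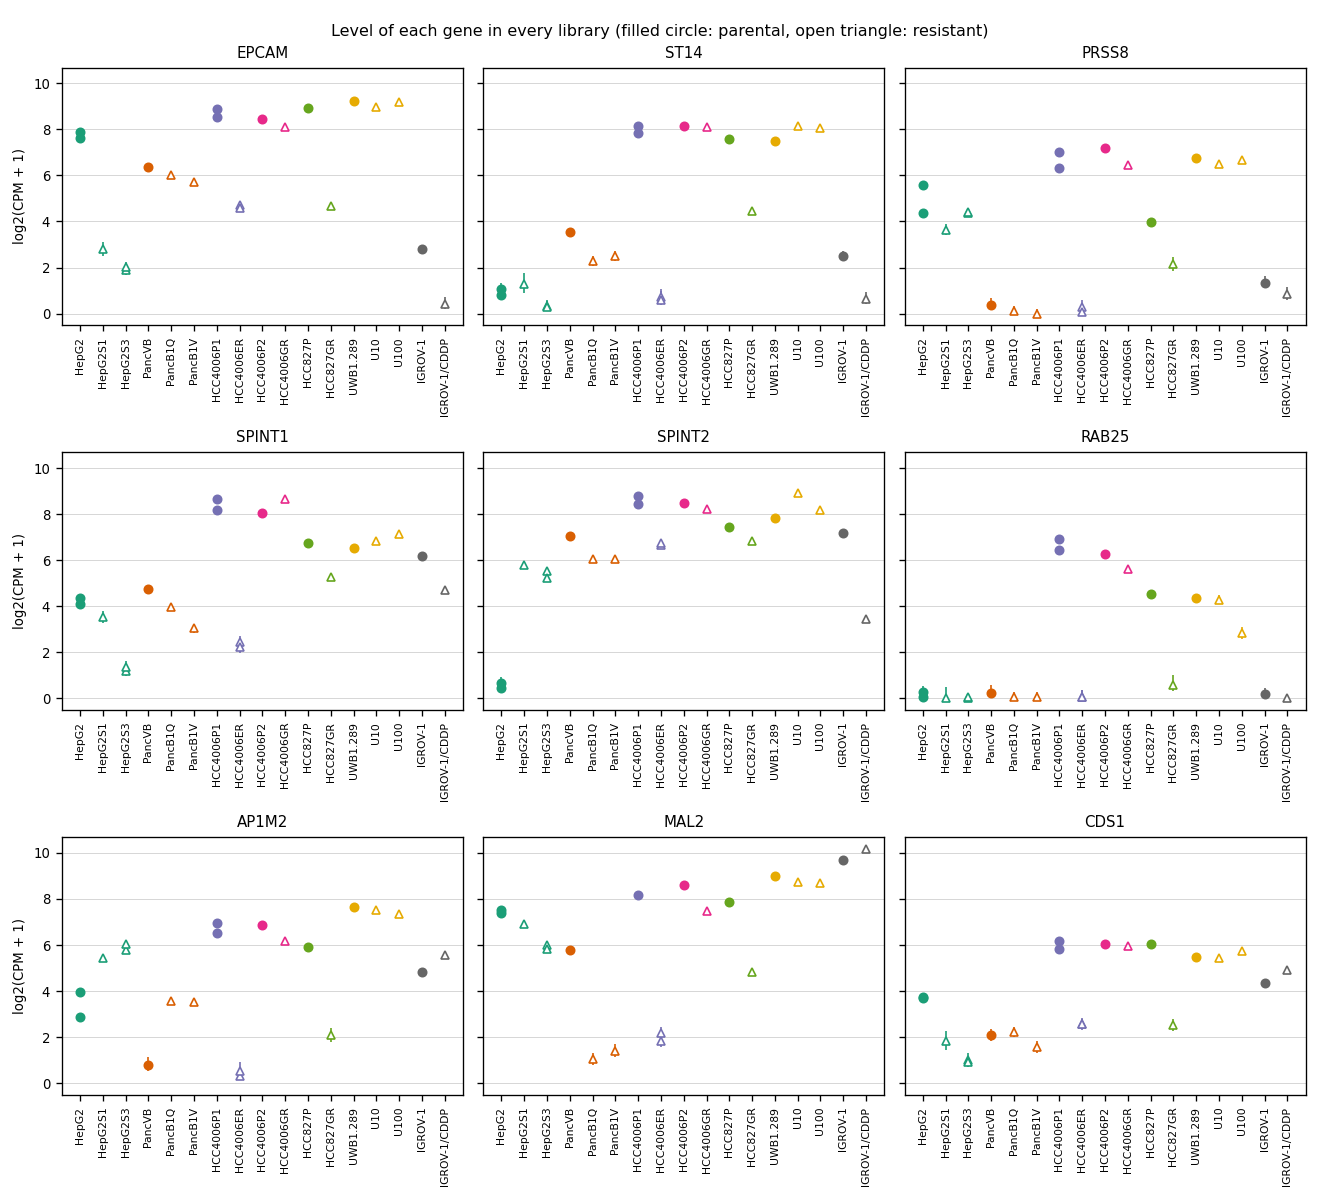
Level of each of the 9 genes as log2(CPM + 1) in every library, by cell line, with filled circles for parental and open triangles for resistant lines, colours for the parental line and bars for the 95% Wilson interval. EPCAM sits below 3 in HepG2S1, HepG2S3 and the IGROV-1 lines, and SPINT2 is low in HepG2 alone among the 7 parental lines.

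EPCAM was lower than in the parental line in all 10 resistant lines, and in 9 of the 10 by more than counting error. HepG2 had 197 and 233 CPM in its libraries against 5.99 CPM in HepG2S1 and 2.75 and 3.003 CPM in HepG2S3. HCC4006P1 had 474 and 369 CPM and HCC4006ER 25.2 and 23.0 CPM. HCC827P had 480 CPM against 24.1 CPM in HCC827GR, and IGROV-1 5.97 CPM against 0.316 CPM in IGROV-1/CDDP. In these 5 resistant lines EPCAM was between 17.5-fold and 74.8-fold lower than in the parental line. The last of them rests on 8 counts, with a ratio of 18.9 (95% exact counting interval 9.35 to 44.4). The other 5 resistant lines stayed within 2-fold of their parents. Their levels were 64.5 CPM in PancB1Q and 50.8 CPM in PancB1V against 82.4 CPM in PancVB, 270 CPM in HCC4006GR against 344 CPM in HCC4006P2, and 504 CPM in U10 and 581 CPM in U100 against 598 CPM in UWB1.289. U100 was the line in which the difference, -0.04 on the log2(CPM + 1) scale (counting interval -0.11 to 0.02), did not exceed counting error. On that scale the change was -0.69 in PancB1V, -0.35 in PancB1Q and HCC4006GR and -0.25 in U10. Between 2 libraries of a line EPCAM differed by 0.24 in HepG2, 0.09 in HepG2S3 and 0.13 in HCC4006ER. In HCC4006P1, whose replicate 1 has raised CPM, the gap was 0.36. Changes of that size are thus not set apart from the spread of replicates. The share of all genes lower beyond counting error was not computed.

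ST14, in chr11:130029677-130080257 on the plus strand, was abundant in the lung lines and in UWB1.289 and scarce elsewhere. HCC4006P1 had 281 and 230 CPM, HCC4006P2 280 CPM, HCC827P 188 CPM and UWB1.289 177 CPM, while PancVB had 10.6 CPM, IGROV-1 4.62 CPM and HepG2 0.764 and 1.12 CPM. In HCC4006ER the matriptase transcript was at 0.658 and 0.514 CPM, 436-fold below the parental mean. HCC827GR kept 21.0 CPM, IGROV-1/CDDP 0.554 CPM, PancB1Q 3.89 CPM and PancB1V 4.59 CPM, each more than 2-fold below its parent. HCC4006GR, at 276 CPM, differed from HCC4006P2 by less than counting error. U10 and U100 were above UWB1.289, at 286 and 262 CPM, beyond counting error. HepG2S1, with 1.42 CPM, did not differ from HepG2 beyond counting error, whereas HepG2S3 was lower with 8 and 7 counts.

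PRSS8, in chr16:31142754-31147048 on the minus strand, was never higher in a resistant line than in its parent. HCC4006P1 had 130 and 79.3 CPM, and HCC4006ER had 4 counts and 1 count, or 0.202 and 0.0514 CPM, an 817-fold ratio of pooled counts with an interval from 350 to 2518. HCC4006GR had 86.4 CPM against 145 CPM in HCC4006P2, and HCC827GR 3.41 CPM against 14.8 CPM in HCC827P. The replicates of HepG2 stood apart for this gene, at 19.6 and 47.5 CPM, and the 19.9 and 20.04 CPM of HepG2S3 lay at the lower of them. HepG2S1 had 11.5 CPM. U10 with 90.6 CPM and U100 with 101 CPM were close to the 106 CPM of UWB1.289, and U10 alone of these was lower beyond counting error. PancVB with 6 counts, its derivatives with 2 and 0 counts, and the IGROV-1 lines at 1.53 and 0.791 CPM hardly expressed prostasin.

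SPINT1, in chr15:41136216-41150405 on the plus strand, was detected in every line. The highest level was 405 CPM in HCC4006GR, above the 266 CPM of its parent HCC4006P2. U10 and U100, at 114 and 141 CPM, were likewise above the 91.3 CPM of UWB1.289 beyond counting error. The other 7 resistant lines were lower than their parents beyond counting error. HCC4006ER had 4.50 and 3.70 CPM against 404 and 286 CPM in HCC4006P1, and HepG2S3 1.31 and 1.57 CPM against 16.3 and 19.3 CPM in HepG2. HCC827GR had 37.9 CPM against 105 CPM, IGROV-1/CDDP 25.3 CPM against 72.5 CPM, PancB1V 7.21 CPM and PancB1Q 14.7 CPM against 25.7 CPM in PancVB, and HepG2S1 10.6 CPM.

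SPINT2, in chr19:38734675-38783255 on the plus strand, behaved unlike the other genes of the axis. It was near the detection limit in HepG2, with 14 and 21 counts or 0.382 and 0.603 CPM, yet reached 54.5 CPM in HepG2S1 and 44.8 and 36.4 CPM in HepG2S3. Among the other parental lines it lay between 132 CPM in PancVB and 394 CPM in HCC4006P1. HCC4006ER, with few ST14, PRSS8 and SPINT1 transcripts, still had 100 and 107 CPM of SPINT2 against 438 and 350 CPM in HCC4006P1. HCC827GR had 112 CPM against 174 CPM, and HCC4006GR 299 CPM against 355 CPM. IGROV-1/CDDP showed the largest drop of the 10 pairs, to 9.77 CPM against 145 CPM in IGROV-1, and the pancreatic derivatives had 65.1 and 64.5 CPM. U10 had 481 CPM and U100 293 CPM, both above the 227 CPM of UWB1.289.

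To set inhibitors against their protease, the CPM of SPINT1 and SPINT2 per kb of annotated exon were summed, 1 was added, and the result was divided by ST14 per kb plus 1. Dividing by length does not suit libraries from a 3′ end kit, which the methods name beside a whole-transcript kit. On the log2 scale this ratio of levels was 0.48 in HCC827P, 0.70 in UWB1.289, 1.08 in HCC4006P2, 1.54 and 1.41 in the HCC4006P1 libraries, 2.26 and 2.37 in the HepG2 libraries, 3.26 in PancVB and 4.56 in IGROV-1. It was higher than in the parent by 2.82 ± 0.10 (SD over the 4 pairings of 2 libraries) in HCC4006ER, by 1.99 in HCC827GR and by 1.13 ± 0.07 (SD over 2 pairings) in HepG2S1. IGROV-1/CDDP went the other way, with a change of -1.41. The remaining 6 pairs changed by less than 1, HepG2S3 among them with 0.83 ± 0.15 (SD over 4 pairings). Which inhibitor supplied the sum differed between lines, since SPINT2 made up 1.89% of the inhibitor transcripts per kb in HepG2 but 78.2% in HepG2S1, 95.2% in HepG2S3 and 94.6% in HCC4006ER. In HCC4006P1 the share was 44.3% and in IGROV-1/CDDP 21.2%. These sizes depend on the value added, because ST14 is low in several lines. With 0.1 added in place of 1, the change was 4.98 in HCC4006ER, 2.17 in HCC827GR, 1.76 in HepG2S3, 0.97 in HepG2S1 and -0.04 in IGROV-1/CDDP, so that the decrease in IGROV-1/CDDP rests on the added 1. With TMM-scaled library sizes (edgeR's correction for composition) the HepG2S1 change was 0.94.

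**Figure D2:**
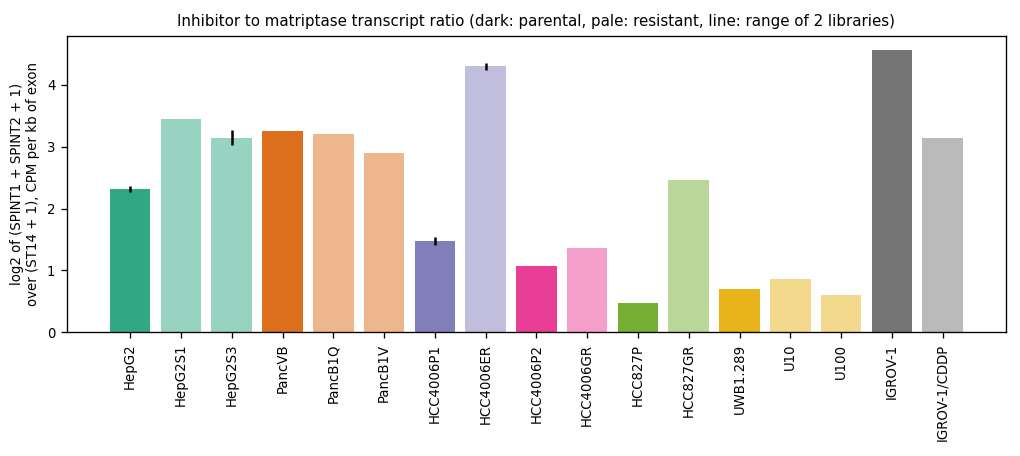
Log2 ratio of summed SPINT1 and SPINT2 to ST14 transcripts, each in CPM per kb of exon with 1 added to both terms, in the 17 lines, with dark bars for parental and pale bars for resistant lines and a vertical line for the range of 2 libraries. HCC4006ER at 4.30 stands above HCC4006P1 at 1.48, and IGROV-1 at 4.56 above IGROV-1/CDDP at 3.15.

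RAB25, in chr1:156030951-156040295 on the plus strand, was restricted to the lung lines and the UWB1.289 lines. HCC4006P1 had 121 and 85.1 CPM, HCC4006P2 77.3 CPM, HCC827P 22.3 CPM and UWB1.289 19.6 CPM, whereas HepG2, PancVB and IGROV-1 had at most 0.218 CPM in any library. Each of the HCC4006ER libraries had 1 count, which makes the pooled ratio to HCC4006P1 2016 with a counting interval from 558 to 16653. HCC827GR had 8 counts or 0.515 CPM. HCC4006GR retained 47.7 CPM, U10 18.4 CPM and U100 6.10 CPM, so that U100 was 3.21-fold and HCC4006GR 1.62-fold below its parent while U10 did not differ beyond counting error. The 5 resistant lines from HepG2, PancVB and IGROV-1 had 0 or 1 count per library, and no fold is given for them.

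AP1M2, in chr19:10683347-10697991 on the minus strand, moved in opposite directions between pairs. HCC4006P1 had 123 and 92.2 CPM against 0.253 and 0.462 CPM in HCC4006ER, and HCC827P 58.4 CPM against 3.22 CPM in HCC827GR. HepG2, by contrast, had 14.7 and 6.28 CPM against 42.3 CPM in HepG2S1 and 54.7 and 64.6 CPM in HepG2S3. PancVB had 0.737 CPM against 10.99 CPM in PancB1Q and 10.5 CPM in PancB1V, and IGROV-1 27.7 CPM against 46.2 CPM in IGROV-1/CDDP. The adaptor subunit was thus higher in 5 of the 10 resistant lines beyond counting error. UWB1.289 had 197 CPM, and its derivatives 185 and 164 CPM.

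MAL2 was the most abundant of the trafficking genes per kb of exon by the median of the parental lines, and with SPINT1 it was above 1 CPM in all 17 lines. IGROV-1, which had little EPCAM, had 828 CPM of MAL2, and IGROV-1/CDDP had 1140 CPM or 332 CPM per kb, the highest level per kb of any of the 9 genes in any line. PancVB with 53.3 CPM lost nearly all of it in PancB1Q (1.05 CPM) and PancB1V (1.65 CPM), lines that kept most of their EPCAM. HCC4006P1 had 289 CPM in its usable library against 2.58 and 3.54 CPM in HCC4006ER. HCC827GR had 27.2 CPM against 232 CPM, HCC4006GR 175 CPM against 394 CPM, and HepG2S3 62.5 and 56.3 CPM against 166 and 180 CPM in HepG2. HepG2S1 kept 119 CPM, and U10 with 429 CPM and U100 with 410 CPM were below the 506 CPM of UWB1.289, each beyond counting error.

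CDS1, in chr4:85504280-85572487 on the plus strand, had line means between 43.9 and 65.3 CPM in the lung parental lines and UWB1.289, and lower levels in IGROV-1 (19.3 CPM), HepG2 (12.6 and 12.1 CPM) and PancVB (3.27 CPM). HCC4006ER had 5.01 and 4.88 CPM against 71.6 and 55.6 CPM in HCC4006P1, HCC827GR 4.76 CPM against 64.6 CPM, HepG2S1 2.54 CPM, and HepG2S3 1.03 and 0.881 CPM. These 4 were the lines more than 2-fold below their parents. IGROV-1/CDDP, at 29.5 CPM, and U100, at 52.3 CPM, were above theirs beyond counting error.

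Promoter sequences are shown because 3 of these trafficking and lipid genes carry the same E-box letters close to the start site. SPINT1, the only other member with a sequence available, does not. Promoters, from 250 bases before to 50 bases after the start site (the first transcribed base counted as 0), were taken from RefSeq on GRCh37. Of the 8 genes searched 4 were matched, and EPCAM, ST14, PRSS8 and SPINT2 were not. MAL2 was not searched. Capitals mark CACCTG or its reverse complement CAGGTG, searched on both strands, letters bound by zinc-finger repressors of epithelial genes such as ZEB1 and SNAI1 as well as by other factors. All sequences are written in the direction of transcription.
RAB25, chr1:156030701-156031000, plus strand: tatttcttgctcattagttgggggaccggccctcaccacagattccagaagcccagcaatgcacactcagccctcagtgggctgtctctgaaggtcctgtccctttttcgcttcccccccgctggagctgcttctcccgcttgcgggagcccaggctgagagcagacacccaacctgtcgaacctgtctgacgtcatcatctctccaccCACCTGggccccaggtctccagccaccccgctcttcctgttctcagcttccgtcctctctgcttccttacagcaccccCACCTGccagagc
AP1M2, chr19:10697939-10698238, minus strand: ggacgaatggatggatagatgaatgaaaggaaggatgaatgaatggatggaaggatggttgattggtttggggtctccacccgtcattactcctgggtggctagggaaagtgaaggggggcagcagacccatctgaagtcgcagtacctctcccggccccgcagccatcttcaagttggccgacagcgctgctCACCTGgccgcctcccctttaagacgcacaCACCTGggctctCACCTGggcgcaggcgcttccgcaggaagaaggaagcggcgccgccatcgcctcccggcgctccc
CDS1, chr4:85504030-85504329, plus strand: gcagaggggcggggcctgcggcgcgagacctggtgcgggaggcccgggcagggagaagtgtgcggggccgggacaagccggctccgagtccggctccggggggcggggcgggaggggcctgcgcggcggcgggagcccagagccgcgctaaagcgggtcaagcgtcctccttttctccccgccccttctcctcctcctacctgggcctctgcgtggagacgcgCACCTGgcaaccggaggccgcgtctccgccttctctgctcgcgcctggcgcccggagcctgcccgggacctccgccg
SPINT1, chr15:41135996-41136295, plus strand: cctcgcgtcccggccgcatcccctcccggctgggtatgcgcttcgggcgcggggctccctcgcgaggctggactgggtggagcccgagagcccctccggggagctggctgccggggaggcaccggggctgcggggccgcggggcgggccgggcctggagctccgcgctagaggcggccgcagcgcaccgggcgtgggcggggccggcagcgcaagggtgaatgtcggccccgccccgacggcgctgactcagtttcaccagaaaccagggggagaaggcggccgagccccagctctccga
RAB25 held 2 matches, starting at -41 and 37 relative to the start site, AP1M2 held 3, at -57, -27 and -15, and CDS1 held 1, at -27. Among 27305 RefSeq promoters of this length, without those on the chromosome of MAL2, 20.6% held at least 1 match and 3.47% held 2 or more. CpG dinucleotides numbered 9 in RAB25, 18 in AP1M2, 37 in CDS1 and 38 in SPINT1, against a median of 14 over all promoters searched. A match describes the letters in the window, and no binding was measured.

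Changes were next put on a common scale as the difference in log2(CPM + 1) between each resistant line and its parent, which understates the change of low genes. Over the 90 combinations of 9 genes and 10 pairs, 37 were at least 2-fold lower and 7 at least 2-fold higher, against 9.26% and 11.5% of all gene and pair combinations with a mean of at least 1 CPM. Without the HepG2 derivatives, 30 of 72 combinations were lower and 3 higher. In those 8 pairs 1.76% (U100) to 11.7% (HCC4006ER) of all genes were lower, and 5.5% (IGROV-1/CDDP) to 11.6% (HCC4006ER) were higher. Of the 3 higher values that remained, 2 were AP1M2 in the pancreatic lines and 1 was SPINT2 in U10.

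The pairs differed widely. All 9 genes were at least 2-fold lower in HCC4006ER, where 11.7% of all genes were lower and 11.6% higher by that amount, with a median change of the 9 genes of -6.16. In HCC827GR it was 8 of 9 genes, against 7.79% of all genes lower and 10.5% higher, with a median of -3.10 and SPINT2 as the exception at -0.63. IGROV-1/CDDP had 4 genes lower (EPCAM, ST14, SPINT1 and SPINT2) beside 7.19% of all genes, and none at least 2-fold higher beside 5.5%. In PancB1Q 3 genes and in PancB1V 4 genes were lower, beside 9.41% and 7.24% of all genes, and AP1M2 alone was higher in each, beside 6.14% and 8.72%. HepG2S1 had 3 genes lower and 2 higher and HepG2S3 4 lower and 2 higher, where 18.3% and 17.4% of all genes were lower and 25.8% and 27.5% higher. In HCC4006GR MAL2 alone was lower, at -1.17, beside 7.48% of all genes, with none higher beside 7.67%. U10 had no gene at least 2-fold lower beside 5.01% of all genes and SPINT2 higher beside 6.36%, and U100 had RAB25 lower beside 1.76% and none higher beside 6.37%. Pairs that share a parent (HepG2S1 with HepG2S3, PancB1Q with PancB1V, U10 with U100) share the parental libraries. The median change of all genes at 1 CPM or more was 0.23 in HepG2S1 and 0.28 in HepG2S3 on this scale, and the direction of the members was the same with TMM-scaled library sizes in all 90 combinations except ST14 in HCC4006GR (-0.03 and 0.03).

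**Figure D3:**
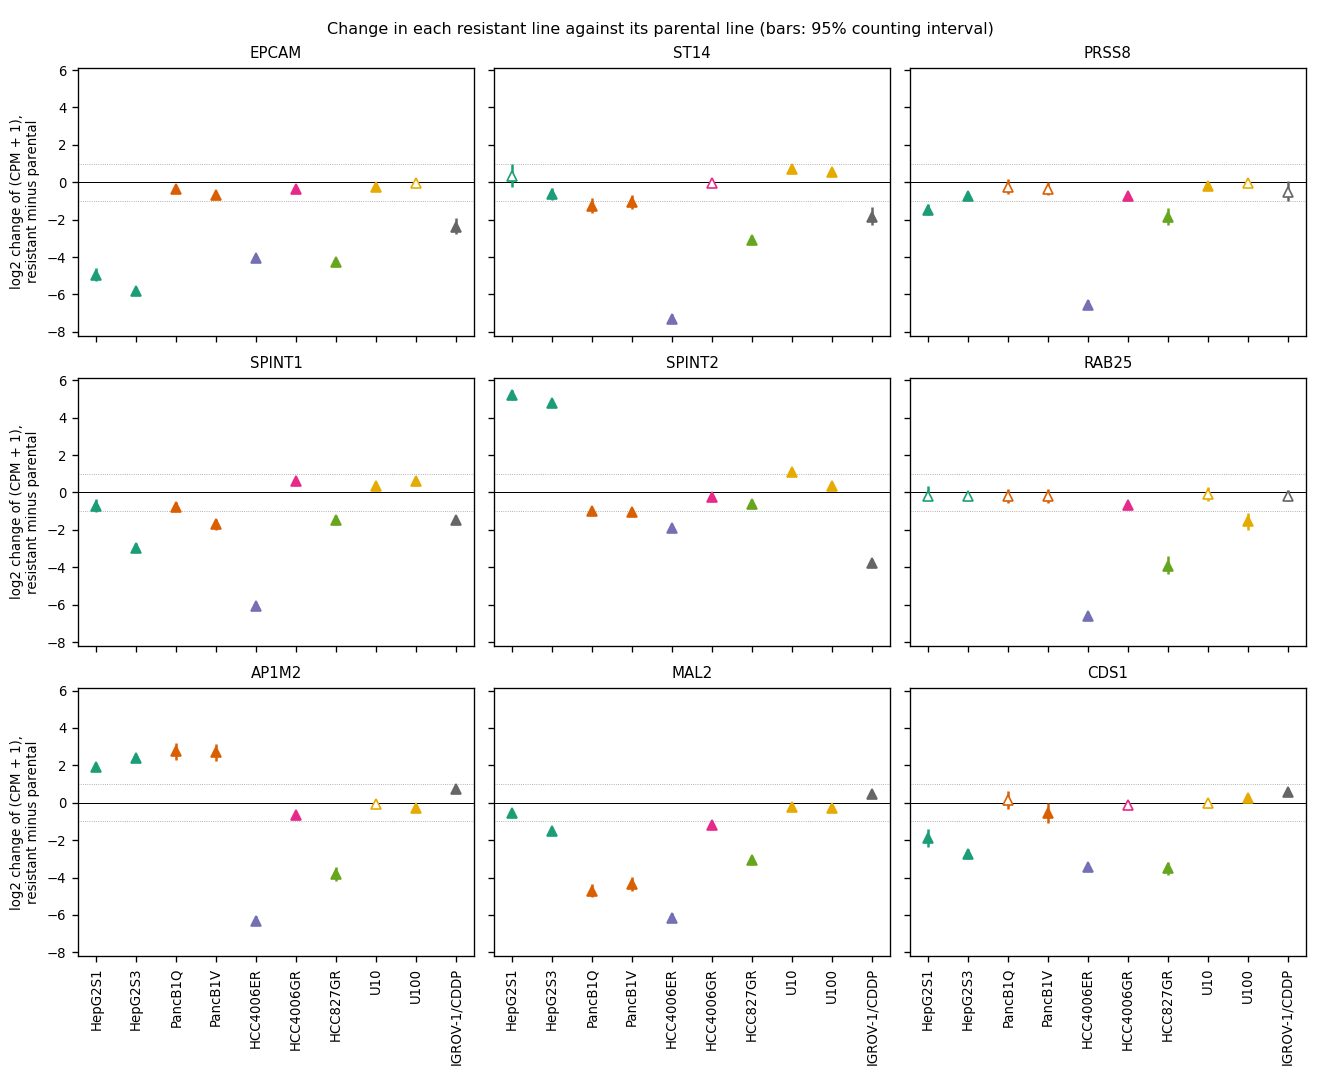
Change of each gene in each resistant line against its parental line as the difference in log2(CPM + 1), with bars for the 95% counting interval, filled triangles where it excludes 0, and dotted lines at a 2-fold change. EPCAM lies below 0 throughout, while AP1M2 reaches 2.79 in PancB1Q and -6.32 in HCC4006ER.

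The replicated pairs allowed a test, edgeR's quasi-likelihood test with Benjamini-Hochberg adjustment over all genes tested. In HepG2S3 against HepG2, 5 of the 8 genes tested fell, 2 rose and 1 did not pass, where 32.1% of the 16929 genes tested fell and 31.4% rose. RAB25 was too low to be tested. EPCAM fell by 6.54 ± 0.18 (log2 fold change ± SE, n = 2 and 2 libraries, edgeR Benjamini-Hochberg adjusted p = 2.96e-05), the largest decrease of the 8, and CDS1 and SPINT1 fell by 3.99 ± 0.23 and 3.94 ± 0.22. ST14 fell by 2.27 ± 0.39 and MAL2 fell by 1.86 ± 0.14. SPINT2 rose by 6.05 ± 0.29 (edgeR Benjamini-Hochberg adjusted p = 8.09e-05) and AP1M2 by 2.19 ± 0.41 (edgeR Benjamini-Hochberg adjusted p = 0.00656). For PRSS8 the change was -1.06 ± 0.41 (edgeR Benjamini-Hochberg adjusted p = 0.0701), between replicates of HepG2 that differed by 1.24 in log2(CPM + 1). It passed under 5 of 8 alternative settings, and without HepG2 replicate 2 the change was -0.31. Markers moved in the same pair. Beside the liver genes, all 4 genes of the epithelial list fell with log2 fold changes of -8.40 for CDH1, -2.69 for CLDN4, -1.99 for KRT18 and -0.90 for KRT8, their sum being 2263 CPM in HepG2, 1304 CPM in HepG2S1 and 1091 CPM in HepG2S3, while MUC1 rose from a mean of 0.0140 CPM to 22.9 CPM. Their part in the changes was not tested.

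In HCC4006ER against HCC4006P1 all 8 genes tested in the fit of both replicates fell, where 24.9% of the 12791 genes tested fell and 24.1% rose. The fitted changes were -10.75 ± 0.26 for RAB25, -9.53 ± 0.34 for PRSS8, -8.70 ± 0.19 for ST14, -8.15 ± 0.23 for AP1M2 and -6.33 ± 0.17 for SPINT1 (log2 fold change ± SE, n = 2 and 2), those of RAB25 and PRSS8 resting on 1 to 4 counts per HCC4006ER library and thus on the prior count. EPCAM fell by 4.07 ± 0.13 (edgeR Benjamini-Hochberg adjusted p = 8.38e-06), CDS1 by 3.63 ± 0.14 and SPINT2 by 1.87 ± 0.12, the smallest decrease of the 8 (edgeR Benjamini-Hochberg adjusted p = 5.9e-05). MAL2, tested without HCC4006P1 replicate 1, fell by 6.74 ± 0.14 (n = 1 and 2, the lone parental library being assumed to vary like the others), in a fit in which 31.2% of genes fell. The lung genes were each below 1 CPM in both lines of this pair. The epithelial list fell here too in 4 of 4 genes with log2 fold changes of -6.42 for CLDN4, -5.70 for CDH1, -1.40 for KRT18 and -1.35 for KRT8. The value of CLDN4, like that of MAL2, was fitted without HCC4006P1 replicate 1. The list fell from a sum of 5248 CPM to 1698 CPM, and its part in the result was not tested.

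Of 11777 genes tested in both replicated pairs, 32.2% passed in both, 1852 of them in the same direction and 1935 in opposite directions. Among the members EPCAM, ST14, SPINT1 and CDS1 fell in both, whereas SPINT2 and AP1M2 rose in HepG2S3 and fell in HCC4006ER. MAL2 is not among these 11777 genes. It fell in HepG2S3, and its change of -6.74 in HCC4006ER came from the fit without HCC4006P1 replicate 1. The difference between the changes was tested in a fit of both pairs, in which 55.9% of all 14479 genes tested passed. There the HepG2S3 change minus the HCC4006ER change was 10.38 ± 0.60 for AP1M2 (edgeR Benjamini-Hochberg adjusted p = 1.79e-06) and 7.95 ± 0.29 for SPINT2 (edgeR Benjamini-Hochberg adjusted p = 1.7e-07). For CDS1 it was -0.34 ± 0.24 (edgeR Benjamini-Hochberg adjusted p = 0.254), so a difference between the pairs was not shown.

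**Figure D4:**
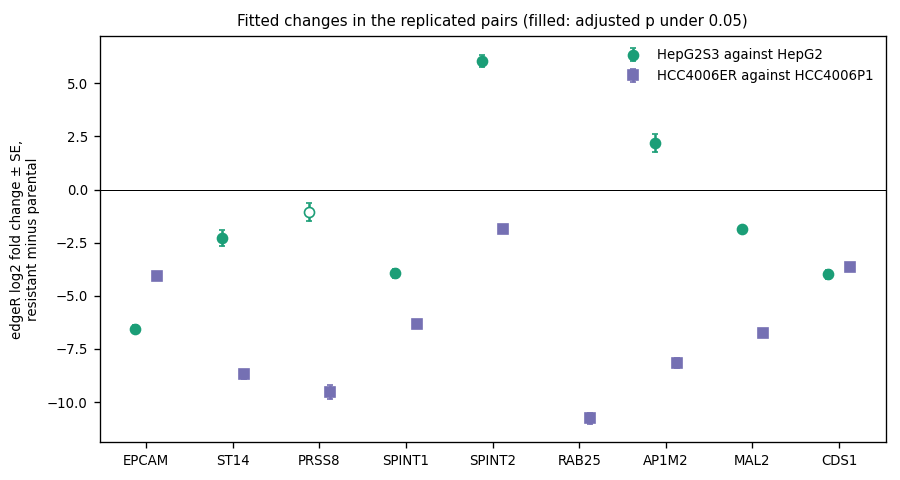
Fitted log2 fold change ± SE of the 9 genes in HepG2S3 against HepG2 (circles) and HCC4006ER against HCC4006P1 (squares), filled where the edgeR adjusted p is under 0.05. The points for SPINT2 and AP1M2 lie above 0 in the first pair and below 0 in the second, and RAB25 has no point in the first.

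Over the 7 parental lines, with the resistant lines of a parent summed and the parental line as a block, edgeR called 0 of the 9 genes and 0 of 19829 genes in all (0.0%), with 920 genes at an unadjusted p under 0.05. EPCAM had a log2 fold change of -2.78 ± 0.96 (SE, n = 7 parental lines, edgeR Benjamini-Hochberg adjusted p = 0.994), RAB25 of -3.29 ± 1.27, and MAL2 of -2.29 ± 0.95. DESeq2 called 18 genes lower, 0.0963% of those tested, and EPCAM with -2.84 ± 0.70 (DESeq2 Benjamini-Hochberg adjusted p = 0.0195) and RAB25 with -3.43 ± 0.94 (DESeq2 Benjamini-Hochberg adjusted p = 0.0492) were among them. Without HepG2 and its derivatives the EPCAM change was -2.12 ± 0.80 in edgeR. Averaged per parent in log2(CPM + 1), EPCAM was lower in 7 of 7 parental lines, from -5.38 in HepG2 to -0.14 in UWB1.289. ST14 and MAL2 were lower in 6, SPINT1, SPINT2 and CDS1 in 5 and AP1M2 in 4. For ST14 these include HCC4006P2 at -0.03, within counting error. They also include HepG2 at -0.16, with a parental mean of 0.942 CPM, HepG2S1 being higher and HepG2S3 lower. The share of all genes lower in as many lines was not computed, so these counts only describe the members. RAB25 averaged at most 0.184 CPM in 3 of the 7 parental lines and PRSS8 0.276 CPM in PancVB, so no such count is given for them.

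Members were then compared with a paralog that is not specific to this set, to see whether the epithelial form moved more than its relative. RAB25 was set against RAB11A, a ubiquitous recycling GTPase that lay between 80.6 and 263 CPM in the 17 lines. The RAB25 change minus that of RAB11A was -5.06 in HCC4006ER, -3.97 in HCC827GR, -1.44 in U100, -0.69 in HCC4006GR and 0.30 in U10. In HepG2, PancVB and IGROV-1 RAB25 was already near 0 and had little room to fall, so that no test over the 7 parental lines is given for it. The other genes were tested with an exact permutation test that flips signs, two-sided, with Benjamini-Hochberg adjustment over the 5 pairs of genes compared. MAL2 exceeded MAL, a related raft protein, in its decrease, with a mean difference of -2.52 ± 2.20 (SD, n = 7 parental lines) in 6 of 7 lines (exact permutation p = 0.0312, adjusted 0.0781, and 0.0625 unadjusted with HCC4006P1 and HCC4006P2 counted as 1), but MAL was under 1 CPM in 14 of 17 lines and had little room to fall. The mean difference was -1.10 ± 3.66 for AP1M2 against AP1M1, the ubiquitous medium subunit (exact permutation p = 0.469) and -0.87 ± 2.14 for CDS1 against CDS2 (exact permutation p = 0.391). None of these 3 passed after adjustment over 5.

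Single pairs show how members and paralogs parted. In HCC4006ER AP1M2 fell while AP1M1 rose from 48.7 to 104 CPM, a fitted change of 1.13 ± 0.15 (edgeR Benjamini-Hochberg adjusted p = 0.0013), and in HCC827GR AP1M1 was at 58.3 CPM against 30.5 CPM. RAB11A fell in HCC4006ER as well, by 1.51 ± 0.13 (edgeR Benjamini-Hochberg adjusted p = 0.000232), far less than RAB25.

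**Figure D5:**
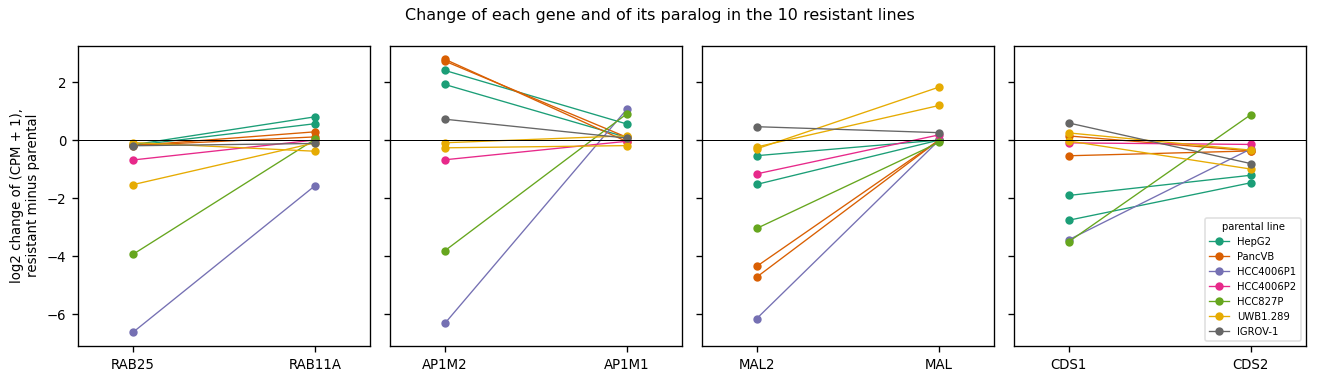
Change in log2(CPM + 1) of RAB25, AP1M2, MAL2 and CDS1 (left of each panel) and of its paralog (right) in the 10 resistant lines, joined by a line for each pair and coloured by parental line. RAB11A, AP1M1 and MAL stay nearer 0 than RAB25, AP1M2 and MAL2 in HCC4006ER and HCC827GR.

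How the other 8 genes followed EPCAM was described by correlation of log2(CPM + 1) over the 17 lines, many of which share a parent, so that no p is given. Pearson's r was 0.82 for ST14, 0.74 for RAB25, 0.66 for SPINT1, 0.64 for PRSS8, 0.61 for CDS1, 0.47 for SPINT2, 0.35 for AP1M2 and 0.14 for MAL2, with Spearman's rho from 0.28 for MAL2 to 0.79 for ST14. Over the 7 parental lines alone r lay between -0.19 for MAL2 and 0.75 for PRSS8. Leaving out IGROV-1/CDDP and HepG2S3, the lines farthest from the median EPCAM level, r was 0.28 for SPINT2, 0.59 for AP1M2 and 0.40 for MAL2, while that of ST14 was 0.79. Over the 10 changes, which share parental libraries, r with EPCAM was 0.83 for CDS1, 0.61 for SPINT1, 0.47 for PRSS8 and 0.39 for ST14. It was 0.33 for RAB25, 0.21 for AP1M2, 0.08 for MAL2 and -0.47 for SPINT2. Spearman's rho over the 10 changes was -0.08 for RAB25, -0.09 for AP1M2 and -0.12 for SPINT2. For the rest it lay between 0.28 for MAL2 and 0.72 for PRSS8. Without both HepG2 derivatives, which had the largest EPCAM decreases, r was 0.85 for CDS1 and ST14, 0.81 for RAB25 and 0.78 for AP1M2. It was then 0.75 for SPINT1, 0.74 for PRSS8, 0.51 for SPINT2 and 0.38 for MAL2. The negative r of SPINT2 thus rests on the HepG2 derivatives. Among the pairs left, the largest EPCAM decreases were those of HCC827GR (-4.26) and HCC4006ER (-4.07), where all 9 genes were lower. Spearman's rho was not computed for these pairs.

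Among 10955 genes that reached 10 CPM in some line and lie outside the stretch without counts, the 5 whose levels were most like EPCAM over the 17 lines were ADAP1 (Pearson's r = 0.95), ELF1 (0.93), MAPK13 (0.91), PSD4 (0.90) and C6orf132 (0.90). ST14 ranked 34, RAB25 125, SPINT1 343, PRSS8 407, CDS1 520, SPINT2 1235 and AP1M2 2058 in the same order, and MAL2 was not ranked.

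Further genes of the same processes were read from 2 lists of 22. The first held proteases, substrates and partners around EPCAM and matriptase. In HepG2S3 9 of its 19 tested genes fell and 7 rose, with a median log2 fold change of 0.33 against -0.01 over all genes, and in HCC4006ER 14 of 20 fell and none rose, with a median of -1.75 against 0.01. Among all genes 32.1% fell and 31.4% rose in HepG2S3, and 24.9% fell and 24.1% rose in HCC4006ER, which are also the shares to read the second list against. The second held trafficking genes, of which 6 of 19 fell and 8 rose in HepG2S3 (median 0.18), and 11 of 20 fell and 5 rose in HCC4006ER (median -0.39). Over the 7 parental lines edgeR called 0 genes of either list. Genes in the stretch missing from HCC4006P1 replicate 1, MET, AP1S1, AP1S2 and RAB11FIP1 among them, were tested without that library. Their HCC4006ER changes thus rest on 1 parental library, and the shares above are not from that fit.

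CLDN7, the claudin that binds EPCAM, parted from it in the HepG2 derivatives. HepG2 had 3 counts in all against 27.5 CPM in HepG2S1 and a mean of 30.4 CPM in HepG2S3, and in HCC4006ER it fell from a mean of 184 CPM to 0.994 CPM. In HCC827GR it was at 10.9 CPM against 171 CPM. PancB1Q and PancB1V had 1.82 and 3.78 CPM against 7.14 CPM, while HCC4006GR (176 CPM against 202 CPM), the UWB1.289 lines (129, 163 and 120 CPM) and the IGROV-1 lines (14.1 and 19.5 CPM) differed less. Of the listed genes that are not members, 20 passed the test in both replicated pairs, 9 in the same direction and 11 in opposite directions, where 51.1% of all genes that passed in both did so in opposite directions. The proteases PRSS22 (-1.83 in HepG2S3, -10.03 in HCC4006ER) and PLAU, the urokinase gene (-2.36, -1.19), the protease-activated receptor F2RL1 (-3.55, -2.94) and the EPCAM-cleaving sheddase ADAM10 (-0.70, -0.81) fell in both. Among trafficking genes the epithelial GTPase RAB17 (-4.07, -3.32), the RAB11 motor MYO5B (-1.24, -3.88) and the MAL relative PLLP (-3.06, -2.70) fell in both, while AP1S2 (0.88, 1.31) and RAB11FIP1 (2.09, 0.49) rose in both.

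Opposite directions were found for the hyaluronan receptor CD44 (10.78, -3.86), CLDN7 (9.08, -7.47), the receptor tyrosine kinases MST1R (6.501, -4.48) and MET (0.71, -2.22), the tetraspanin CD9 (2.27, -2.19), FHL2 (0.36, -2.03), RAB11A (0.49, -1.51), AP1S1 (2.18, -0.61), AP1S3 (0.82, -1.04), VAMP8 (0.55, -1.18) and the apical syntaxin STX3 (-2.14, 0.42). With STX3 as the exception these genes rose in HepG2S3 and fell in HCC4006ER. The fitted rise of CLDN7 starts from 3 counts and depends on the prior count.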

How the data were processed

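RNA sequencing of 7 parental and 10 resistant cell lines was analysed from the gene counts that the authors deposited for 21 libraries. Per the labels, mRNA was captured with a stranded KAPA kit, and the submitters' processing notes name Bowtie, TopHat, SAMtools, HTSeq and hg19, while the methods also describe a 3′ end kit and STAR. The deposited values are raw counts per gene, not normalized. Between 28.0% and 42.8% of each file's total lay in rows outside genes and was left out. Of 53515 genes, 45100 (84.3%) matched a GENCODE annotation lifted to GRCh37.

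CPM used the summed counts of all genes in a library as denominator, replicates were averaged, and changes were taken as log2(CPM + 1). Intervals of levels and changes are 95% Wilson intervals, and those of ratios of pooled counts are exact binomial. HepG2S3 was tested against HepG2, HCC4006ER against HCC4006P1, and resistant against parental profiles over 7 parental lines with edgeR 4.0.16 (TMM, filterByExpr, quasi-likelihood test, Benjamini-Hochberg adjusted p under 0.05) in R 4.3.3. Genes past the point where HCC4006P1 replicate 1 has no counts were left out of the second test. Results were recomputed with DESeq2 1.42.0, with a pseudocount of 0.1 CPM, TMM-scaled library sizes, other filters, the replicate block and each replicate left out in turn. The tests were tried on simulated data first.

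The members and lists were chosen with earlier results of these data known. Named are the 9 members, 4 of 5 paralogs compared (the other is not reported here), CLDN7, listed genes past the test in both replicated pairs, the 5 genes most correlated with EPCAM, and marker genes. The test of the difference between pairs was chosen after seeing the data. Tables and plots were made in Python 3.11.15 (pandas 2.3.3, matplotlib 3.10.9).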

Additional observations from a re-analysis of the deposited data

Results flagged for a closer look

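The change of PRSS8 in HCC4006ER, -6.55 in log2(CPM + 1), lay apart from those of the other 6 parental lines, the nearest of which was -1.84, and that of SPINT1, -6.08, from the next at -1.82. SPINT2 stood apart in its parental level, with 0.58 in log2(CPM + 1) in HepG2 and 7.06 in the next lowest parental line. These 3 came from 23 sets of 7 values, and chance alone marks about 1 in 20.

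The change in HepG2S3 minus that in HCC4006ER passed the edgeR test, chosen after seeing the data, for 8 of 9 genes, where 55.9% of all genes tested passed. It was -2.44 for EPCAM, which fell more in HepG2S3 (edgeR Benjamini-Hochberg adjusted p = 1.64e-05). For the genes whose change was less negative or positive in HepG2S3, it was 8.51 for PRSS8, 6.47 for ST14, 2.42 for SPINT1, 7.95 for SPINT2 and 10.38 for AP1M2, and 4.88 for MAL2 in the fit without HCC4006P1 replicate 1. The value of 7.72 for RAB25 (edgeR Benjamini-Hochberg adjusted p = 0.0280) rests on at most 8 counts in any HepG2 or HepG2S3 library.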

How the results depend on the processing

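The replicates limit these results, since 8 of 10 pairs have a line with 1 library, and levels under 0.305 CPM cannot be separated from 0 in the shallowest library. In HCC4006ER, with all genes kept and the replicate block, 0 of the 8 genes were called (edgeR Benjamini-Hochberg adjusted p = 0.107), a fit in which 0 of all 15978 genes were called. Over 7 parental lines DESeq2 called 2 genes lower where edgeR called 0. The MAL2 minus MAL difference was -2.31 (exact permutation p = 0.0625) with HCC4006P1 and HCC4006P2 counted as 1, where 6 values allow 0.0312 at the least. The median correlation with EPCAM, 0.62 over 8 genes, was 0.54 with a pseudocount of 0.1 CPM, 0.61 with TMM-scaled library sizes and 0.68 without the 2 lines farthest from the median EPCAM level. Leaving out each replicate, 36 to 38 values were at least 2-fold lower and 7 higher, and 3 pairs had a ratio at least 2-fold higher. The PRSS8 change of log2(CPM + 1) in HepG2S3 ranged from -1.21 without HepG2 replicate 1 to 0.027 without HepG2 replicate 2, where it turned. Its edgeR log2 fold change stayed negative over the alternative settings, from -1.56 to -0.31. The cause of these moves was not tested. MAL2 has no value without HCC4006P1 replicate 2.

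With the replicate block alone 6 genes were lower (PRSS8 among them) and 2 higher in HepG2S3. There 5282 of all 16929 genes tested were lower and 5279 higher. In HCC4006ER 8 were lower, beside 3914 lower and 3873 higher of all 12791 genes. Over all genes, HCC4006ER had 3182 lower and 3084 higher calls, but 1744 and 1673 with all genes kept and 2058 to 5176 lower with a replicate left out, and over 7 parental lines DESeq2 called 18 lower and 79 higher where edgeR called 0. Same-numbered libraries correlated in their deviations by 0.01 for the HepG2 pair and 0.26 for the HCC4006 pair, and the labels do not say that a number marks a shared culture. In the HepG2 pair A and B in the sample names stood for 1 and 2. The shift of all changes under TMM scaling was -0.32 (HepG2S1), -0.29 (HepG2S3), 0.19 (PancB1Q) and under 0.1 in size elsewhere.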
